A study of Mus musculus with 15 samples.

Results

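The core promoter is the stretch of DNA around the transcription start, and it was described here by the MeDIP promoter probes that lie within 200 bp of a listed start. MeDIP pulls down methylated DNA with an antibody before it is labelled and hybridised. A probe was a member if its annotation listed a distance for exactly 1 gene name and the smallest distance to the start was 200 bp or less in either direction. Of 80567 promoter probes 13357 met this rule, and averaging them by gene name on each array part gave 8589 core promoters, 4407 on part 1 and 4182 on part 2. The rule used no measured value. Of these core promoters 4059 rested on 1 probe, 4346 on 2 and 184 on 3 or more, and 16 gene names were on both parts. By accession 8419 of the names matched 1 RefSeq gene, 8 pooled several genes under a shortened name and 162 matched none. For 39 of the 8419 the array's annotation put the probes on another chromosome than RefSeq puts the gene.

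The lines compared were TKO and J1, both mouse embryonic stem (ES) cells. TKO is a triple knockout of Dnmt1, Dnmt3a and Dnmt3b, the enzymes that methylate DNA, and J1 is wild type. Both grew without feeder cells for 2 passages before harvest, and DNA from different passages, 2 ug for each pull-down, went to 7 arrays of each part. Each MeDIP array held DNA labelled as TKO in Cy5 and as J1 in Cy3, and 3 expression arrays compared RNA of the lines. Each genotype was 1 line, so the p-values hold no spread from line to line. Values are log2(Cy5/Cy3), so a positive value lies towards the channel labelled TKO and a negative one towards the channel labelled J1. No MeDIP array had its dyes swapped, so dye and line cannot be told apart. Earlier results of these data, in which several germ cell promoters lay towards the channel labelled TKO, raised doubt about the dye labels, and neither side is read here as the methylated line. The series description names replicate 2 of the expression arrays as dye-swapped, and across genes its log2(Cy5/Cy3) correlated at r = -0.82 with replicate 1 and -0.79 with replicate 3, while replicates 1 and 3 correlated at 0.80. The labels allow either dye for each line. J1 in Cy5 on replicates 1 and 3 was taken as likely, because RNA of the deleted genes is then lower in TKO, so their values below are no separate check of it. In the opposite order each RNA value changes its sign and the detection shares of TKO and J1 change places.

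In mammals methylation falls mainly on cytosines of CpG dinucleotides, written CG in a sequence. Most CpGs of the genome are methylated, but promoters dense in CpGs, known as CpG islands and typical of widely used genes, are usually free of it around the start. Promoters poor in CpGs, typical of tissue-specific genes, are more often methylated where the gene is silent. In ES cells Dnmt3a and Dnmt3b set new methylation and Dnmt1 copies it after replication. An antibody pull-down depends on how many methylated CpGs a fragment holds, so regions with few CpGs give little material even when methylated.

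Sequences of 8 promoters are shown so that the CpG content behind the values below can be seen. They are RefSeq sequences of build GRCm38.p6, from 250 bases before to 50 after the start, 5′ to 3′ on the gene's strand, with every CG in capitals. The start listed for a probe can differ from the RefSeq start, so a probe need not lie inside the sequence printed. Of 32851 RefSeq promoters of this length 94.6% hold at least 1 CG on the strand shown, with a median of 7. The first 4 belong to high ratios on the labelled TKO side. Snx14, a sorting nexin of the endosomal system (chr9:88438880-88439179, minus strand), holds 24 CGs, and Cldn17, a claudin of tight junctions (chr16:88506929-88507228, minus strand), holds 6. Efcab5, an EF-hand domain gene (chr11:77188919-77189218, minus strand), and C6, a complement component (chr15:4726960-4727259, plus strand), hold 6 each.
Snx14: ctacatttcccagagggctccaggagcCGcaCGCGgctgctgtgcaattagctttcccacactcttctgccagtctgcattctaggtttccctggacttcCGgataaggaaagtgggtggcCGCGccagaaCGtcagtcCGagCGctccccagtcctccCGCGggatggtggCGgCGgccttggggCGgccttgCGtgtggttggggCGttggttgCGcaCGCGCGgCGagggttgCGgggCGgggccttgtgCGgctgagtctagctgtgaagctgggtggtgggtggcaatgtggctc
Cldn17: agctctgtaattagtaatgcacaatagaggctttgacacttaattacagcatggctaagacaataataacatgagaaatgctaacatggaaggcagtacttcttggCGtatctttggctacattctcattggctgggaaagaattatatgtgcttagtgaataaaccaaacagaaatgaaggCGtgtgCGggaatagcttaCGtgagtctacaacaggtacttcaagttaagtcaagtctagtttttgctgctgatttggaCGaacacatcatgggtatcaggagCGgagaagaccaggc
Efcab5: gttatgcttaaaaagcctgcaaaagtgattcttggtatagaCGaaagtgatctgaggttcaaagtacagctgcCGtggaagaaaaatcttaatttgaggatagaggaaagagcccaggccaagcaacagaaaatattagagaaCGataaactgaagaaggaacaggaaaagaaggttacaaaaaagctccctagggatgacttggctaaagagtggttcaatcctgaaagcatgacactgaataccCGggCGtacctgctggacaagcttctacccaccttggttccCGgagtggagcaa
C6: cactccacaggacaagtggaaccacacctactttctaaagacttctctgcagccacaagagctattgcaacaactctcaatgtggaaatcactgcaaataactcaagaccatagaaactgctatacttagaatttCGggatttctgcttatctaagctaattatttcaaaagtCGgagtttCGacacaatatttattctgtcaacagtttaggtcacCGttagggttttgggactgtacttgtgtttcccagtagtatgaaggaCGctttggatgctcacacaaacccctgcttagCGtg
The next pair belongs to the labelled J1 side. Nsfl1c, which encodes the p47 cofactor of the membrane fusion ATPase p97 (chr2:151493932-151494231, plus strand), holds 16 CGs. Zmpste24, the protease that matures lamin A (chr4:121098161-121098460, minus strand), holds 13.
Nsfl1c: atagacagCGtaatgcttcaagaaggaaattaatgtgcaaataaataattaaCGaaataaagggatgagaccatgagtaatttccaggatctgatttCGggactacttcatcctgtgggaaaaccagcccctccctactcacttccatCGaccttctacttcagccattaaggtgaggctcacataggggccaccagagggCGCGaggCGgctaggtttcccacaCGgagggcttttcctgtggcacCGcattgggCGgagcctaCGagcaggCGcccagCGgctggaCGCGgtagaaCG
Zmpste24: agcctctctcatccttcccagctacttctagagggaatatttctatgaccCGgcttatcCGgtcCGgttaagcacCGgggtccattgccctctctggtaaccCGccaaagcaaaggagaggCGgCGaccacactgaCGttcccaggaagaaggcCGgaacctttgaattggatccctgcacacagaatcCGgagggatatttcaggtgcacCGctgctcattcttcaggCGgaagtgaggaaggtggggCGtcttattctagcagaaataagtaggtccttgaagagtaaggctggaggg
The last pair is for comparison, from a widely used gene and a germ cell gene. Rpl11, a protein of the large ribosomal subunit (chr4:136053344-136053643, minus strand), holds 10 CGs and had a log2 ratio of -0.24 ± 0.12 (SD, n = 7). Asz1, a germ cell gene of the piRNA pathway (chr6:18109012-18109311, minus strand), holds 17 and was added after its value was seen.
Rpl11: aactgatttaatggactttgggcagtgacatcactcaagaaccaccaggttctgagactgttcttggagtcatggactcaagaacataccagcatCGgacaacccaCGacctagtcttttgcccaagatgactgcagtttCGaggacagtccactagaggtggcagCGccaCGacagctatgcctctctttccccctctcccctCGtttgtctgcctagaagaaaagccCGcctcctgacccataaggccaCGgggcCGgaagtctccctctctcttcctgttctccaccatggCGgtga
Asz1: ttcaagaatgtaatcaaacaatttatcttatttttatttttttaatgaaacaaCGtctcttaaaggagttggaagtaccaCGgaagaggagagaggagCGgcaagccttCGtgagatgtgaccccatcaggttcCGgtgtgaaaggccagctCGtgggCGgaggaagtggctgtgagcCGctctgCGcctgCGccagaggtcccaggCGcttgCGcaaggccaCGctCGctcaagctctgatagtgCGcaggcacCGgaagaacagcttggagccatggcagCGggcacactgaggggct

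Facts of the whole series bear on these values. Between 93.7% and 99.9% of core probes were well above background on each array. Across core promoters the arrays of part 1 correlated at a median Pearson r of 0.626 (0.399 to 0.818 over 21 pairs) and those of part 2 at 0.601 (0.414 to 0.752). RNA of the deleted genes was lower in TKO, with log2(TKO/J1) of -2.50 ± 0.19 (SD, n = 3) for Dnmt3b, while Dnmt3a (-2.36 ± 0.18) and Dnmt1 (-1.07 ± 0.25) were measured on 2 arrays each, and whether these probes fall inside the deleted sequence was not looked at. All 5 ES cell markers on the expression arrays (Pou5f1, Sox2, Esrrb, Zfp42 and Tdgf1) were well above background in both lines on all 3 arrays. Of 10000 units of summed signal they took 5.19 to 8.70 in TKO and 6.36 to 12.8 in J1, ranges that overlapped.

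The first question was where the core promoters lie relative to the rest of the promoter tiles. On every array of both parts the median core promoter was lower, that is further from the channel labelled TKO, than the median of the probes more than 1000 bp from the start. On part 1 the array medians of log2(Cy5/Cy3) ran between -0.06 and -0.02 over 4407 core promoters, against 0.10 to 0.17 over 2332 far features, and the groups of medians did not overlap. The mean difference was -0.17 ± 0.04 (SD, n = 7), below 0 on 7 of 7 arrays (exact sign-flip permutation test over arrays, two-sided, p = 0.0156, the smallest that 7 arrays allow). On part 2 the core medians ran between -0.07 and 0.01 over 4182 core promoters, against 0.08 to 0.19 over 2249 far features. The mean difference there was -0.18 ± 0.06 and again below 0 on 7 of 7 arrays (exact sign-flip permutation test, two-sided, p = 0.0156). The labels number the replicates of both parts alike without saying whether equal numbers hold the same DNA, so part 2 is not taken as an independent repeat of part 1. Adjusted over the 4 such tests of array medians made here, each p stayed at 0.0156. Brightness moved with this difference. The mean log2 signal of both channels, relative to the median probe of the array, averaged 0.62 on part 1 and 0.60 on part 2 for core probes, against -0.63 and -0.67 for far probes. In the normexp setting the scanner's processed signals were replaced by mean signals with a modelled background and an offset of 50, which pulls ratios of dim probes towards 0, and the scanner's dye normalisation was not used. There the core minus far difference was -0.04 on part 1 (exact sign-flip permutation test, p = 0.141) and -0.01 on part 2 (p = 0.859, same exact test), so it no longer passed. The parts of brightness, background, offset and dye normalisation in this were not tested apart.

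The ratio followed distance smoothly rather than stepping at 200 bp. Averaged over the arrays, the median probe lay at 0.12 between -2000 and -1000 bp on part 1, at 0.07 between -1000 and -800 bp, at 0.01 between -600 and -400 bp and at -0.02 between -400 and -200 bp. Inside the core it lay at -0.03 between -200 and -100 bp, at -0.05 between -100 and 0 bp, at -0.03 between 0 and 100 bp and at -0.04 between 100 and 200 bp. On part 2 the same 4 core bins gave -0.05, -0.03, -0.04 and -0.04. Set against its neighbours within each array, the bin just upstream of the start lay below the bin between -200 and -100 bp on 6 of 7 arrays of part 1 and below the bin between 0 and 100 bp on 6 of 7. On part 2 it lay above the first of these on 7 of 7 arrays and above the second on 4 of 7, so the order of the core bins was not the same on both parts. Beyond 600 bp downstream the median was above 0 again, at 0.07 on part 1 and 0.08 on part 2. Just inside the limit lay Olfr1274 and Zscan12, with their nearest probe at 199 bp and log2 ratios of -0.10 ± 0.18 and -0.11 ± 0.08 (SD, n = 7 each), and Cited1 at 198 bp with -0.23 ± 0.32. Just outside, at 201 bp, lay Csh1 with 0.33 ± 0.36 and Tubgcp2 with -0.05 ± 0.06.

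Core promoters of different CpG content lay apart from each other on every array. Of the core promoters 5962 could be classed from the RefSeq sequence: 2291 CpG-poor (observed over expected CpG under 0.48, median 3 CGs), 2025 CpG-rich (over 0.75 with GC above 55%, median 30 CGs) and 1646 intermediate (median 17 CGs). A further 649 had several starts of different class and the rest no RefSeq promoter here. The median log2(Cy5/Cy3) was 0.07 for CpG-poor, -0.08 for intermediate and -0.10 for CpG-rich core promoters. On part 1 the CpG-poor array medians ran between 0.03 and 0.08 and the CpG-rich ones between -0.13 and -0.05, without overlap. The mean difference was 0.16 ± 0.03 (SD, n = 7), above 0 on 7 of 7 arrays (exact sign-flip permutation test, two-sided, p = 0.0156). On part 2 the CpG-poor medians ran between 0.05 and 0.12, the CpG-rich ones between -0.14 and -0.01, and the difference was 0.19 ± 0.05, above 0 on 7 of 7 arrays (same exact permutation test, p = 0.0156). With normexp it stayed above 0, at 0.08 on part 1 (exact permutation test, p = 0.0156) and 0.09 on part 2 (exact permutation test, p = 0.0469). CpG-poor core promoters were also dimmer, with a median relative brightness of 0.20 against 0.87 for CpG-rich ones, and the part of brightness was not tested beyond that alternative.

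Single core promoters were asked next. A core promoter was called where its mean log2 ratio was 0.5 or more away from 0 and limma's p, adjusted by Benjamini-Hochberg across every feature of both parts, was under 0.05. Of the 8589 core promoters 376 (4.38%) were called on the labelled TKO side, where 5.28% of all 30848 promoter features were called. On the labelled J1 side 35 (0.407%) were called, against 0.392% of all features. Both shares were near those of the whole array. At any size past the adjusted p, 1581 core promoters (18.4%) lay on the labelled TKO side, against 26.4% of all features, and 2477 (28.8%) on the labelled J1 side, against 22.7%. Among the far features 519 of 4581 (11.3%) were called on the labelled TKO side. All measured arrays lay on 1 side for 357 of the 376 calls and 33 of the 35. The core promoters as a whole ran from -0.98 to 1.64, with 90% of them between -0.30 and 0.47 and a median SD over arrays of 0.14.

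The calls on the labelled TKO side were dim. Their median relative brightness was -1.52, against 0.73 for core promoters that were not called, and in 75 of the 376 the Cy3 channel was not well above background on at least 1 array. With normexp 73 core promoters were called on this side and 4 on the other, and 69 of the 376 were among them. In the CpG-poor class 32 of 204 calls held with normexp, against 7 of 39 intermediate and 8 of 44 CpG-rich ones. The calls fell mainly in the CpG-poor class, of which 8.90% were called on this side, against 2.37% of the intermediate and 2.17% of the CpG-rich core promoters. Where a gene name had a probe on either side of the start (4168 names), the pair correlated across names at r = 0.463 (Spearman's rho 0.349), as a description of probes that share arrays and neighbouring sequence. Of the 162 such names called on the labelled TKO side, both probes were above 0 in 161 and both reached 0.5 in 78. The call was made on the mean of these same probes, so their agreement is in part fixed by the selection.

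The highest ratios belonged to genes of unrelated roles. Mapk6, an atypical MAP kinase, had values between 1.03 and 2.60 (median 1.60) over 7 arrays at a single probe at -13 bp, with a mean of 1.64 ± 0.52 (SD, n = 7, limma adjusted p = 0.000168). Efcab5 had values between 1.29 and 2.49 (median 1.51) at a probe at -24 bp, with a mean of 1.61 ± 0.42 (adjusted p = 8.87e-05). C6 ran between 0.80 and 3.85 (median 1.27) at 74 bp, and its mean of 1.58 ± 1.03 leaned on replicate 4 (adjusted p = 0.00334). These 3 were above 0 on every array, which was a condition for naming them. They were still called with normexp, at 0.85, 0.83 and 0.65. Snx14 ran between 0.90 and 2.37 (median 1.47) over probes at -116 and 104 bp, with a mean of 1.55 ± 0.51, but its Cy3 signal was above background on only 3 of 7 arrays and normexp gave 0.00. Cldn17 ran between 0.71 and 1.99 (median 1.55), with a mean of 1.54 ± 0.41 and 0.66 with normexp.

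Among the other 7 of the 12 highest, some ratios held up to the background setting and others did not. Cyp2d13, a cytochrome P450, ran between 0.80 and 1.71 (median 1.54), with a mean of 1.39 ± 0.33 (adjusted p = 8.21e-05). Tff1, a trefoil peptide of the stomach lining, ran between 0.66 and 1.77 (median 1.40), with a mean of 1.28 ± 0.38. These 2 probes were brighter than the median probe, by 0.60 and 0.22 on the log2 scale, and normexp left them at 1.24 and 1.03. Kif27, a kinesin family gene, was at 1.39 ± 0.50 and Sntb1, a syntrophin, at 1.34 ± 0.57. Grin2b, an NMDA receptor subunit, was at 1.27 ± 0.58. Cngb3, a cone photoreceptor channel subunit, was at 1.26 ± 0.79 and Ddhd1, a phospholipase, at 1.25 ± 0.56. All were above 0 on every array, again a condition for naming them. With normexp Kif27, Sntb1, Grin2b, Cngb3 and Ddhd1 lay at 0.19, -0.17, 0.44, 0.06 and 0.01, short of the size a call needs. The Cy3 channel of Sntb1 and of Cngb3 was above background on 2 of 7 arrays each.

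On the labelled J1 side the calls clustered by chromosome. Of the 35 called core promoters 16 lay on chromosome 8, which held 380 (4.42%) of the core promoters and whose median was -0.13, against chromosome medians between -0.06 and -0.02 for the other autosomes and the X. With chromosome 8 left out, which was decided once the positions were known, 19 calls were left on this side, and 371 on the labelled TKO side. Fut10, a fucosyltransferase gene of chromosome 8, had values between -1.68 and -0.74 (median -0.84) and a mean of -0.98 ± 0.32 (SD, n = 7, limma adjusted p = 0.00022). Adam24, a testis metalloprotease gene of the same chromosome, ran between -2.31 and -0.32 (median -0.66) with a mean of -0.85 ± 0.67. Gas6, the ligand of the TAM receptors, and Aga, a lysosomal amidase, lie there too, with -0.69 ± 0.18 and -0.69 ± 0.19. These values do not separate a shift of all of chromosome 8 from differences at single promoters.

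Away from chromosome 8 the lowest was Nsfl1c on chromosome 2. Its 2 probes, at -133 and 116 bp, gave values between -1.06 and -0.63 (median -0.94) and a mean of -0.88 ± 0.15 (limma adjusted p = 7.55e-05), and normexp gave -0.74. Zmpste24 on chromosome 4 ran between -1.92 and -0.43 (median -0.59), with a mean of -0.80 ± 0.54. Gabra4, a GABA-A receptor subunit on chromosome 5, ran between -2.58 and -0.18 (median -0.39), so its mean of -0.79 ± 0.85 (adjusted p = 0.0328) rested largely on replicate 6, without which it was -0.49 and short of a call. Pakap, listed as Palm2, on chromosome 4, was at -0.74 ± 0.29. All 8 lowest were below 0 on every array, which was a condition for naming them. With normexp Fut10, Nsfl1c, Zmpste24 and Gas6 were the 4 called.

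Sensory receptors, which guide smell and pheromone responses, form large gene families. Of 418 olfactory receptor core promoters 33 (7.89%) were called on the labelled TKO side, against 4.38% of all core promoters and 8.90% of the CpG-poor ones, and 1 was called on the labelled J1 side, with a list median of 0.12 against -0.05 over all core promoters. Of 78 vomeronasal receptor core promoters, pheromone receptors of the nose, 9 (11.5%) were called and 0 on the other side, with a median of 0.24. Both families have few CGs, a median of 1 in the RefSeq promoters that were matched. Olfr1255 was at 1.05 ± 0.65 (SD, n = 7), with Cy3 above background on 4 of 7 arrays and a bound of 0.91 where dim spots are set to the background limit. Olfr1151 was at 0.87 ± 0.21 and Olfr161 at 0.87 ± 0.18 on 6 arrays. Vmn1r80, listed as V1rg3, ran between 0.45 and 1.25 (median 0.94) with a mean of 0.88 ± 0.28, and with normexp it was still called at 0.66. Vmn1r216 was at 0.82 ± 0.26. Vmn1r15 fell below 0 on 1 array, and its 0.78 ± 0.55 rests on Cy3 above background on 3 of 7 arrays, with a bound of 0.42, under the size a call needs. With normexp Olfr1255 (0.09), Olfr1151 (0.34), Olfr161 (0.48), Vmn1r216 (0.15) and Vmn1r15 (-0.07) lost the call. Members of these families resemble each other in sequence, and how much their probes cross-hybridise was not examined.

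Of 35 tissue-specific core promoters 6 (17.1%) were called, all on the labelled TKO side. Of all core promoters 4.38% were called there, and of the CpG-poor ones 8.90%. The matched RefSeq promoters of the list had a median of 3 CGs. The list's median ratio was 0.11, and 25 of its members lay above 0. At any size past the adjusted p 17 lay on the labelled TKO side against 4 towards J1. Of all core promoters 18.4% and 28.8% did so. Fabp2, the intestinal fatty acid binding protein, ran between 0.52 and 1.74 (median 1.04) with a mean of 1.08 ± 0.46, Lyz1, a lysozyme gene, was at 0.78 ± 0.23 and Mb, myoglobin, at 0.77 ± 0.28. Of 57 cytochrome P450 core promoters 6 (10.5%) were called and 0 on the other side, near the 8.90% of the CpG-poor ones. Their median ratio was 0.10, and their matched RefSeq promoters had a median of 3 CGs. Among the 6 were Cyp2d13, Cyp2c40 at 0.85 ± 0.32 and Cyp2c39 at 0.62 ± 0.17. With normexp Cyp2c40 (0.11), Cyp2c39 (0.22) and Lyz1 (0.24) lost the call, while Fabp2 (0.72) and Mb (0.60) kept it. Of 14 keratin core promoters 1 (7.14%) was called, Krt25, a hair root keratin, at 0.97 ± 0.33. Of 6 core promoters of the Rhox cluster, reproductive homeobox genes of the X chromosome, all lay above 0 and 2 (33.3%) were called. Rhox4b ran between 0.39 and 1.53 (median 0.77) with a mean of 0.83 ± 0.39, and Rhox3a between 0.49 and 0.95 (median 0.67) with a mean of 0.69 ± 0.16. With normexp they were at 0.82 and 0.70, both still called, and both probes were brighter than the median probe. The Rhox genes have near-identical copies, so the signal of their probes may be shared between copies.

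Lists of widely used and developmental genes lay near or below 0. The median was -0.10 over 17 housekeeping genes, -0.09 over 16 ribosomal protein genes, -0.08 over 45 Polycomb developmental genes, -0.12 over 15 DNA methylation genes and -0.10 over 141 zinc finger genes. Of these lists 1 ribosomal protein gene and 1 zinc finger gene were called on the labelled TKO side. Rplp2, a ribosomal stalk protein, was at 0.78 ± 0.26 over 3 probes and at 0.03 with normexp, and Zfp560 was at 0.81 ± 0.33 and 0.51. Of 6 histone core promoters 1 (16.7%) was called, H3f3a at 0.62 ± 0.22. The array places the Rplp2 probes on chromosome 12, where RefSeq has the gene on chromosome 7, and the H3f3a probes on chromosomes 13 and 16, where RefSeq has it on chromosome 1. Both values therefore come from probes outside the RefSeq promoters of these genes. The same holds for 4 other calls on the labelled TKO side, Bzw1 at 0.99 ± 0.65, 1700029P11Rik at 0.88 ± 0.38, Pgk2 at 0.79 ± 0.43 and Tpt1 at 0.59 ± 0.17, which were named after their positions were seen, and for none on the labelled J1 side. Defensins, antimicrobial peptides, had a median of -0.26 over 15 core promoters with 2 calls on the labelled J1 side, Defb1 at -0.57 ± 0.24 and Defb8 at -0.55 ± 0.22, both on chromosome 8, and 1 on the other, Defb22 at 0.51 ± 0.20. Of 17 trophoblast core promoters 1 (5.88%) was called, Prl4a1, a placental prolactin, at 0.82 ± 0.37. The imprinted (22 core promoters), p53 target (14), interferon (11), pluripotency (18), fibroblast (16), primitive endoderm (12), Hox (6) and protocadherin (3) lists had 0 calls by limma. At any size past the adjusted p the imprinted genes had 2 on the labelled TKO side against 7 on the labelled J1 side, the p53 targets 1 against 7, the interferon genes 1 against 0 and the pluripotency genes 3 against 3. The fibroblast genes had 2 against 6, the primitive endoderm genes 3 against 5, and the Hox and protocadherin genes 0 against 1 each. For comparison, 18.4% of the whole set of core promoters passed at any size with a positive mean and 28.8% with a negative one. Calls made up 4.38% and 0.407% of that set. With shares this low, 0 or 1 calls in lists of 3 to 22 core promoters tell little.

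Germ cell genes are silenced by promoter methylation in many somatic cells. None of their 28 core promoters was called, 17 were above 0 and their median was 0.02, with 7 past the adjusted p towards the labelled TKO channel and 1 towards J1. Of all core promoters 18.4% passed it towards the labelled TKO channel and 28.8% towards J1. Asz1 ran between 0.14 and 0.39 (median 0.22) with a mean of 0.23 ± 0.09 (limma adjusted p = 0.00178). Tex101, a germ cell surface protein, was at 0.22 ± 0.17 (adjusted p = 0.0138), while Sycp3, of the synaptonemal complex, at 0.07 ± 0.09 (adjusted p = 0.193) and Dazl, a germ cell RNA-binding protein, at -0.04 ± 0.11 on 6 arrays (adjusted p = 0.493) did not pass. Dppa3, a maternal and pluripotency factor, was at 0.44 ± 0.19 (adjusted p = 0.00073), short of the size a call needs. The core promoter of Dnmt3a was at 0.38 ± 0.17 (adjusted p = 0.00112), that of Dnmt1 at -0.07 ± 0.16 (adjusted p = 0.307) and that of Dnmt3b at -0.09 ± 0.17 (adjusted p = 0.207). Actb, the cytoskeletal actin used as a housekeeping control, was at -0.09 ± 0.14 (adjusted p = 0.154).

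The next comparison set each core against the far probes of the same gene name, which keeps the gene fixed. For 3740 names both could be measured, with a median core minus far difference of -0.16, and 2600 (69.5%) lay below 0. The core was lower by at least 0.5 with an adjusted p under 0.05 in 586 (15.7%) and higher in 102 (2.73%). Of the 586, 353 had far probes called on the labelled TKO side. On the labelled TKO side 157 of these names had a called core and 459 had called far probes, and 30 had both. A core was called in 6.54% of the 459 names with called far probes, against 4.20% of all 3740 names, a difference that was not tested. By CpG class the median difference was -0.06 for 977 CpG-poor, -0.20 for 746 intermediate and -0.20 for 846 CpG-rich names. Its far part varied less between the classes than its core part, with far medians of 0.16, 0.12 and 0.11 against core medians of 0.07, -0.08 and -0.09. With normexp 50 names were higher and 77 lower.

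The 5 largest falls at the core came from high far probes beside a core near 0. Naa60, an N-terminal acetyltransferase, had a core of -0.20 ± 0.16 and far probes at 1.95 ± 0.62, a difference of -2.15 ± 0.72 (SD, n = 7). Adra1a, an adrenergic receptor, differed by -1.65 ± 0.40, Polm, a DNA polymerase of end joining, by -1.54 ± 0.55 and Adh7, an alcohol dehydrogenase, by -1.51 ± 0.65. Fas, the death receptor, had a core of 0.01 ± 0.07 and far probes at 1.54 ± 1.01, and its difference ran between -3.86 and -0.65 (median -1.23). Among the largest rises were C6 (1.86 ± 0.95), Snx14 (1.73 ± 0.44), Slx4, a scaffold of DNA repair nucleases (1.39 ± 0.51) and Cngb3 (1.36 ± 0.77). In these 4 the far probes lay between -0.38 and -0.10. The values of Snx14 and Cngb3 and their rank are uncertain, since Cy3 of the core was above background on 3 of 7 and 2 of 7 arrays, and with dim spots set to the background limit the core ratios were 1.20 and 0.74 in place of 1.55 and 1.26. With normexp C6, Slx4 and Adh7 kept the call, while Snx14, Cngb3, Naa60, Adra1a, Polm and Fas lost it.

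The last comparison asked how the RNA of these genes differed. Of 8402 genes with a core promoter 8096 were on the expression arrays, and 3918 (48.4%) were well above background on all 3 arrays in TKO and 4032 (49.8%) in J1. Detection was not even over the core ratio. Below -0.5 it was 48.6% in TKO and 45.7% in J1 of 35 genes. Between -0.5 and -0.25 it was 65.4% in TKO and 66.8% in J1 of 775 genes, between 0 and 0.25 it was 37.5% in TKO and 38.5% in J1 of 2209, and between 0.25 and 0.5 it was 20.3% in TKO and 19.4% in J1 of 582. Above 0.5 it was 23.8% in TKO and 23.0% in J1 of 344, so neither end continued the fall seen between -0.5 and 0.5. Among genes called on the labelled TKO side 81 of 339 (23.9%) were detected in TKO and 77 (22.7%) in J1. The same shares were taken within CpG classes. Of CpG-poor genes called on that side 15 of 192 (7.81%) were detected in TKO and 11 (5.73%) in J1, against 18.8% in TKO and 19.7% in J1 of 1943 that were not called. Of intermediate genes called 11 of 34 (32.4%) were detected in TKO and 9 (26.5%) in J1, against 59.5% in TKO and 61.5% in J1 of 1569 not called. Of CpG-rich genes called 31 of 42 (73.8%) were detected in TKO and 33 (78.6%) in J1, against 71.4% in TKO and 72.4% in J1 of 1929 not called. These shares are counts over genes of the same 3 arrays and carry no test.

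Of the core promoter genes 4161 could be tested for RNA, and by limma (adjusted p under 0.05) 889 (21.4%) were higher in TKO while 582 (14.0%) were lower. Over all 13716 genes measured 16.5% were higher and 15.6% lower. In simulated data with 200 changed genes this fit recovered 41% of genes changed by 1 on the log2 scale and none changed by 0.5. In the real data 2261 genes were called higher and 2133 lower. So many calls make the adjusted cut-off easier to reach, so the simulated shares do not carry over to them. With median centring in place of loess, which moved the median of all genes to -0.10, against -0.01 with loess, 156 core promoter genes were higher and 219 lower, so the direction of the balance depends on the scaling. Of the genes called on the labelled TKO side 84 were measured. In TKO 18 of them were higher and 9 were lower, and their median log2(TKO/J1) was -0.01, against 0.04 over all core promoter genes. Of those called on the labelled J1 side 16 were measured, 6 higher and 0 lower, with a median of 0.17. On chromosome 8 it was 4 higher of 6 measured, and elsewhere 2 of 10 (20.0%), near the 21.4% of all core promoter genes. Gas6 (1.12 ± 0.31, SD, n = 3), Pakap (0.94 ± 0.16) and Aga (0.46 ± 0.17) were among the 6.

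The share of called genes with higher RNA, 18 of 84 (21.4%), was that of all core promoter genes (21.4%). By size of change, RNA of Prl4a1 was at least 3.93-fold higher in TKO, that of Prl7d1, a placental prolactin (core 0.69 ± 0.15), at least 2.93-fold, that of Fabp1, the liver fatty acid binding protein (core 0.76 ± 0.17), at least 1.95-fold on 2 arrays, and that of Rhox3a at least 1.54-fold. These are bounds, the mean of TKO against the background limit of J1, because J1 was not well above background on any array, and with 3 arrays the dye orientations are unequal in number. With normexp the core calls of Prl7d1 (0.71), Fabp1 (0.55) and Rhox3a held, and those of Prl4a1 (0.23), Rras2 (0.21) and Cox7b2 (0.33) were lost. Cox7b2, a testis subunit of cytochrome oxidase (core 0.50 ± 0.31), had log2(TKO/J1) of 1.04 ± 0.08 (SD, n = 3) and Rras2, a Ras-related GTPase (core 0.60 ± 0.19), 0.68 ± 0.32 on 2 arrays. Lower in TKO were 1700029P11Rik (probes placed on another chromosome, as above) at -1.10 ± 0.10, Pcmtd1 (core 0.61 ± 0.16) at -0.77 ± 0.18 on 2 arrays and Ubn2, a chromatin protein (core 0.84 ± 0.28), at -0.64 ± 0.03.

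Of 19 germ cell genes with measured RNA 14 were higher and 1 lower in TKO. None of the 28 core promoters of the list was called, where 4.38% of all core promoters were called on the labelled TKO side. At any size 7 of the 28 passed the adjusted p towards that channel. Dazl had log2(TKO/J1) of 2.42 ± 0.40 (SD, n = 3), Asz1 2.07 ± 0.07 on 2 arrays, Tex101 1.78 ± 0.06, Dppa3 of the pluripotency list 0.73 ± 0.21 and Sycp3 0.33 ± 0.06 on 2 arrays. In the trophoblast list 7 of 8 measured core promoter genes were higher and 0 lower, in the primitive endoderm list 8 of 8, in the fibroblast list 6 of 9 with 2 lower, and in the Polycomb developmental list 10 of 13 with 1 lower. A gene not detected in J1 enters only if TKO detects it, which favours rises in such lists. Of all core promoter genes measured 21.4% were higher and 14.0% lower. Other lists had more genes lower than higher in TKO. The p53 targets had 0 higher and 7 lower of 13, the pluripotency genes 3 and 7 of 16 and the interferon genes 0 and 3 of 3. For the DNA methylation genes it was 2 and 5 of 11, and for the zinc finger genes 6 and 12 of 79. Markers of other cell types were measured beside these values. Of 10000 units of summed signal the 27 trophoblast markers took 19.6 to 26.1 in TKO and 4.52 to 5.81 in J1, the 21 primitive endoderm markers 9.36 to 10.9 in TKO and 7.69 to 10.5 in J1, and the 22 fibroblast markers 6.17 to 7.39 in TKO and 5.60 to 6.87 in J1. The trophoblast ranges did not overlap, while the primitive endoderm and fibroblast ranges did. Detected on all 3 arrays were 15 of the trophoblast markers in TKO and 14 in J1, 14 of the primitive endoderm markers in TKO and 11 in J1, and 14 of the fibroblast markers in TKO and 13 in J1, while Ctsq, Ihh, Lum and Twist2 were detected on no array. In bulk samples more cells of a type and more RNA per cell cannot be told apart, and the part of such cells in the RNA values was not tested.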

How the data were processed

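Pulled-down DNA and RNA of TKO and J1 were hybridised to Agilent arrays, with 1 line in each colour. The deposited scanner files hold intensity values that were background-subtracted and dye-normalised by Feature Extraction, which is version 8.5 per the submitters' processing notes. Per the file headers it was 8.5.1.1 on the MeDIP arrays and on expression array 1 and A.7.5.1 on the others. The deposited value tables hold log10 ratios by the authors. On the MeDIP arrays their medians lay between -0.0114 and -0.00204, and how they were centred is unknown. The MeDIP table correlated with the ratios computed here at r of 0.99 or more per array, and the expression table at r = 0.922 across genes.

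Ratios were log2 of red over green processed signals, centred on the median of non-control probes, without loess. Spots marked as uneven were left out, 860 on part 1 and 3568 on part 2. Probes were averaged by gene name and distance class (200 bp or less, to 1000 bp, beyond), probes of several names by name, and probes without one kept single. The sign of a distance was read as negative upstream, since the tiles reach furthest on that side. Features with at least 5 of 7 arrays were tested with limma (version 3.58.1 in R 4.3.3) for a mean other than 0, in a separate fit for each part, and p-values were adjusted together. P-values measure the spread between arrays. The number of arrays limits the precision. Array medians were tested with an exact sign-flip permutation test over all sign patterns (numpy 2.4.6). Spearman's rho came from scipy 1.17.1. Brightness is the mean log2 signal of both channels minus the array's median.

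Expression used normexp (offset 50) and loess, replicate 2 turned, the brightest probe of a gene, and probes well above background in TKO or J1 on all 3 arrays. Whether the 3 arrays hold separate cultures is not given for each, so their spread may be technical. Simulated data, in which 200 features were changed, served to test each fit. The promoter fit recovered 89% of log2 changes of 0.6, the core minus far fit 78%, and the expression fit 0% of changes of 0.5 and 41% of changes of 1.

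CpG classes came from RefSeq promoters (GRCm38.p6). No source used here gives the build of the probe positions, so only their chromosomes are printed. Some named items are not reported here. The members, gene lists and tests were chosen with earlier results of these data known. Named were the 12 highest and 8 lowest calls with all arrays on 1 side, up to 3 calls of each list, the 5 highest and 5 lowest core minus far calls, the 6 highest and 3 lowest RNA changes among labelled TKO side calls, a set always named, and the 3 names on each side of the distance limit. The lists were 24, of which 1 repeats the ES cell markers. The sequence of Asz1, the removal of chromosome 8 and the restriction to names with more than 1 probe were chosen after seeing the data.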

Additional observations from a re-analysis of the deposited data

Results flagged for a closer look

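In 11 of the 90 sets of 7 array values examined, 1 array lay further from its nearest neighbour than Dixon's 95% limit allows. Chance alone picks out about 1 in 20 sets taken at random. Many of these sets were named for extreme means and some share values, as C6 does, so that rate does not apply to them. On the labelled J1 side Adam24 had -2.31 on replicate 6, against a median of -0.60 over the other arrays, Fut10 had -1.68 on replicate 6, against -0.84, and Zmpste24 had -1.92 on replicate 4, against -0.54. Gabra4 had -2.58 on replicate 6, against -0.35, and without that array its mean was -0.49, short of the size a call needs. On the labelled TKO side Efcab5 had 2.49 on replicate 2, against 1.44, C6 had 3.85 on replicate 4, against 1.18, and H3f3a had 1.06 on replicate 2, against 0.57. Cldn17 was low on replicate 1, at 0.71 against 1.66. Of the core minus far differences C6 had 3.97 on replicate 4, against 1.46, Slx4 had 0.35 on replicate 1, against 1.55, and Fas had -3.86 on replicate 5, against -1.17. The replicate numbers refer to the part that holds each gene, and the cause of these values was not tested.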

How the results depend on the processing

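The normexp setting (offset 50, no scanner dye normalisation) moved the call counts most. With it 73 core promoters were called on the labelled TKO side, 4 were called on the labelled J1 side, the core minus far medians were -0.041 (part 1, exact sign-flip permutation p = 0.141) and -0.014 (part 2, p = 0.859, same exact test), and 50 names were higher and 77 lower at the core. Of 64 named core promoters 30 kept their side of the threshold and their direction with normexp, 27 kept the direction but lost the call, and 7 changed sign: Adh7 0.042, Vmn1r15 -0.069, Dazl 0.073, Dnmt1 0.0028, Fas -0.030, Sntb1 -0.17 and Snx14 -0.00046. Signs also changed at Dazl with loess (0.047), at Actb (0.014) and Dnmt3b (0.0085) within 100 bp, and at Adh7 (0.28), Aga (0.0016) and Dazl (0.069) within 500 bp. Single probes gave 666 and 91 calls of 13357, mode centring 22 and a limit of 500 bp 11 calls on the labelled J1 side, and far probes beyond 2000 bp 24 higher and 136 lower of 751 names, fewer names by construction. Added after seeing the data were chromosome 8 left out, with 19 calls on the labelled J1 side, and names with 2 or more probes, with 174 and 8 calls of 4530. The remaining MeDIP settings (loess, both or either channel above background, the deposited table, 100 bp, slide as a random block) gave 311 to 382 calls on the labelled TKO side and 30 to 49 on the other; the slide correlation could not be estimated on part 1 and was -0.0745 on part 2.

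Leaving out 1 array at a time gave 357 to 396 calls on the labelled TKO side, 31 to 42 on the labelled J1 one, 89 to 112 names higher and 556 to 608 lower at the core, core minus far medians of -0.17 to -0.16 on part 1 and -0.19 to -0.16 on part 2, and CpG-poor minus CpG-rich medians of 0.15 to 0.17 and 0.17 to 0.20. Gabra4 lost its call without part 1 replicate 3, 4 or 6, Cox7b2 without 2, 6 or 7 (0.43 to 0.47) and Defb22 without 2 or 7, and the core of Fas, near 0, lay between -0.010 and 0.025. For RNA, median centring gave 156 genes higher and 219 lower in TKO and turned Nsfl1c (-0.19), Mapk6 (-0.15) and Rplp2 (-0.19). Without 1 RNA array 403 to 798 were higher and 258 to 514 lower, with 2609 measured without replicate 1 and 2612 without replicate 2; the RNA of Mapk6 lay between -0.019 and 0.10. No paired analysis was possible because each MeDIP array already holds both lines, so its ratio is the pair; whether equal numbers on both parts mark the same DNA is not stated. Dim probes limit these data: below background only a bound is known. The cause of the changes was not tested.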
